A study of Mus musculus with 6 samples.

Results

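Interferon-stimulated genes are the effectors, sensors and signaling components whose transcription is raised by interferons. A set of 43 mouse genes was examined here, chosen by symbol and role in the pathway. The rule itself used no measured value, but the genes were chosen with earlier results of these data known. The set was therefore not tested as a whole. All 43 were found among the 56980 genes of the deposited expression table, and all 43 passed the filter on low expression that kept 14776 genes for testing. The measurements come from tumor-associated macrophages (TAMs) of mice bearing ID8 tumors, a mouse ovarian cancer cell line injected into the peritoneal cavity. WT TAMs came from C57BL/6 mice and C5aR-/- TAMs from C5aR knockout mice on the same C57BL/6 background, bought at 6 to 8 weeks of age. The mice were female, and tumors were harvested months after injection, so the mice were older when sampled. C5aR is the receptor of the complement fragment C5a, and it is absent from every cell type of the knockout, so the comparison does not separate the receptor on macrophages from that on other cells. Live CD45+CD11b+Ly6G-F4/80+ cells were sorted and their RNA sequenced as 3 WT and 3 C5aR-/- libraries, and whether a library held cells of 1 mouse or of several was not stated. The study's legends give more mice per group than the 3 libraries of each group analysed here, and how mice and libraries correspond is not known.

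Type I interferons, the IFN-α family and IFN-β, bind a receptor made of Ifnar1 and Ifnar2, and the receptor-bound kinases Jak1 and Tyk2 then activate STAT transcription factors. Stat2 and Irf9 are subunits of the ISGF3 complex, which binds interferon-stimulated response elements (ISREs) in promoters and turns on antiviral genes. IFN-γ, made mainly by T and NK cells, acts through Ifngr1 and Ifngr2 on gamma-activated sites (GAS), and many target genes answer to both kinds of interferon. In macrophages IFN-γ is the classical activating cytokine, while type I interferons restrict viruses and tune antigen presentation and chemokine output.

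Expression was given as TPM, a transcript abundance scaled by transcript length and by the total of the library. It keeps no sequencing depth, so no counting error can be given and errors come from the spread between libraries. The TPM of C5ar1, which encodes C5aR, lay from 16.2 to 86.5 in the WT libraries and from 0.05 to 0.38 in the C5aR-/- libraries, which is the order the labels give. Between 14393 and 15015 genes reached a TPM of 1 in a library. F4/80 and the other markers on a list of 10 macrophage genes were present in every library, but their summed TPM ranged from 1209 to 3293 in WT and from 1477 to 4490 in C5aR-/- TAMs. Transcripts of cells that the gate should remove were also present, and epithelial markers summed to a TPM from 1669 to 2211.

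As a group, the 43 genes were lower in C5aR-/- TAMs. The groups were compared with limma on log2(TPM + 1), and each difference is the C5aR-/- mean minus the WT mean on this scale. For genes of low TPM the added 1 shrinks the difference. The difference was below 0 for 40 of the 43 genes, against 55.5% of all genes tested, and the median was -0.95, against -0.05 over all genes. At an unadjusted p under 0.05 with at least a 2-fold difference, 9 genes fell and 0 rose, where the same rule called 2.84% of all genes as lower and 2.13% as higher. The 9 were Ifit1, Ifit2, Ifit3, Ifit3b, Isg15, Ifi44, Mx2, Oas2 and Ddx58. After Benjamini-Hochberg adjustment over all genes limma called 0 of the 43, and 0% of all genes, at an adjusted p under 0.05, while 14 of the 43 had an unadjusted p under 0.05 at any fold, against 14.4% of all genes. The lowest adjusted p of the 43 was 0.0965, for Ifit1, so the 9 calls rest on unadjusted p-values, and a gene said below to have fallen passed the unadjusted rule. The 3 C5aR-/- values lay wholly below the 3 WT values for 14 genes, against 12.5% of all genes, and wholly above for 1, against 8.84%. For any single gene, an exact permutation test of 3 libraries against 3 cannot give a two-sided p below 0.1.

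**Figure D1:**
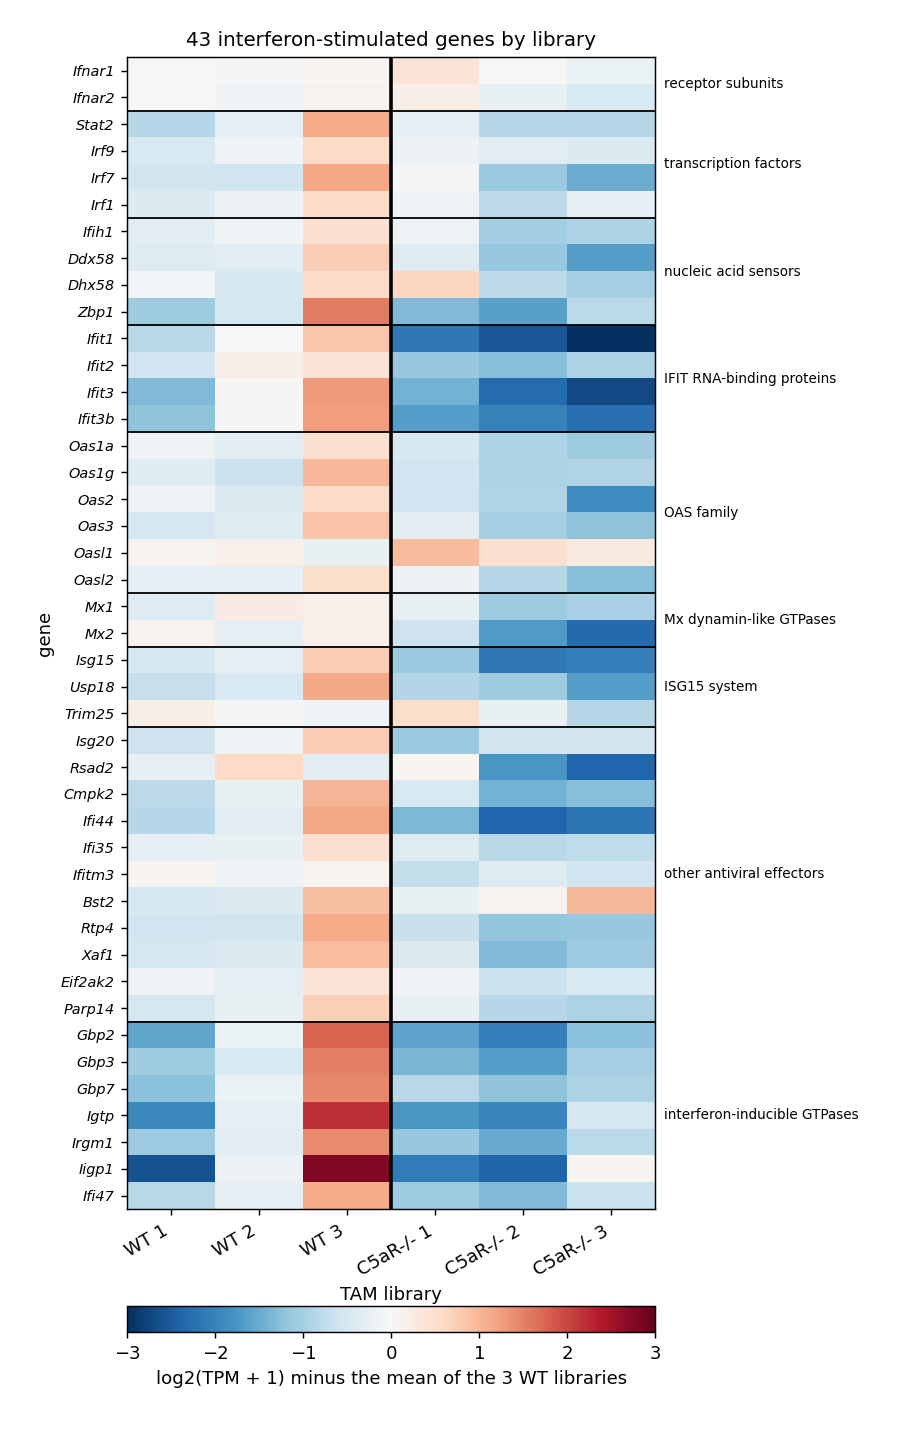
Heat map of the 43 interferon-stimulated genes (rows, grouped by role) in the 3 WT and 3 C5aR-/- TAM libraries (columns). Color gives log2(TPM + 1) minus the mean of the 3 WT libraries, from -3 (blue) to 3 (red), and WT library 3 stands out as the reddest column, with 35 of the 43 genes at their highest there.

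The libraries of each group were far from equal. The TPM of the 43 genes summed to 2521, 2862 and 6359 in WT TAM 1, 2 and 3 and to 2358, 1926 and 2139 in C5aR-/- TAM 1, 2 and 3. The summed level therefore did not overlap between groups, but WT TAM 1 was close to C5aR-/- TAM 1, and WT TAM 3 was more than 2 times any other library. WT TAM 3 held the highest value of all 6 libraries for 35 of the 43 genes, against 22.8% of all genes. Among the C5aR-/- libraries, C5aR-/- TAM 1 was the highest for 32 of the 43, against 39.6% of all genes. The members with the larger differences are therefore given below with the level in each library, and where WT TAM 3 decides a value, also without that library.

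The receptor subunits did not differ beyond their spread. The TPM of Ifnar1 was 39.4, 38.0 and 41.1 in the WT libraries and 51.8, 39.5 and 34.3 in the C5aR-/- libraries, a difference of 0.06 ± 0.17 (standard error, limma adjusted p = 0.903). Ifnar2 had a TPM of 88.3, 82.5 and 94.2 in WT and of 101, 75.5 and 64.5 in C5aR-/- TAMs, a difference of -0.16 ± 0.18 (limma adjusted p = 0.735). In both genes the WT values fell inside the range of the knockout values. WT TAM 3 was 1.06 times the mean of the other WT libraries for Ifnar1 and 1.10 times for Ifnar2, whereas it was over 2 times for most of the set.

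The 4 transcription factors were lower on average in C5aR-/- TAMs, but none passed the test. Stat2, a subunit of ISGF3, had a TPM of 41.6, 63.3 and 165 in WT and of 64.2, 41.8 and 41.7 in C5aR-/- TAMs, a difference of -0.64. Irf9, the DNA-binding subunit of ISGF3, had a TPM of 26.8, 34.6 and 56.5 in WT and of 33.1, 29.3 and 27.3 in C5aR-/- TAMs, a difference of -0.32. Irf7, which drives the amplification of IFN-α production, had a TPM of 44.8, 43.4 and 149 in WT and of 65.1, 30.04 and 23.1 in C5aR-/- TAMs, a difference of -0.87. For all 3 of these factors WT TAM 3 was alone above the other libraries, and C5aR-/- TAM 1 lay within or above the range of the remaining WT pair. Irf1, which IFN-γ induces, had a TPM of 106, 126 and 212 in WT and of 132, 81.3 and 119 in C5aR-/- TAMs, a difference of -0.38. The groups overlapped for each factor, the adjusted p-values from limma were from 0.529 to 0.632, and without WT TAM 3 the median difference of the 4 moved from -0.51 to -0.09.

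Among the nucleic acid sensors, Ddx58 was the one that fell. Ddx58, which encodes RIG-I, a sensor of viral RNA ends, had a TPM of 63.9, 65.7 and 139 in WT and of 63.3, 37.3 and 25.7 in C5aR-/- TAMs. The groups were apart by less than 1 TPM between WT TAM 1 and C5aR-/- TAM 1, and the difference was -1.07 ± 0.41 (limma adjusted p = 0.318). Without WT TAM 3 it was -0.70 and did not pass. Zbp1, a sensor of Z-form nucleic acids that can start necroptosis, had a TPM of 34.7, 51.4 and 218 in WT and of 28.7, 22.9 and 41.6 in C5aR-/- TAMs, a difference of -1.25 ± 0.65 (limma adjusted p = 0.433). Here the high value of WT TAM 3 again set the mean, and without it the difference was -0.47. Ifih1, which encodes the long double-stranded RNA sensor MDA5, and Dhx58, which encodes its regulator LGP2, gave differences of -0.71 and -0.38 with overlapping groups and TPM from 5.38 to 23.3.

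The 4 IFIT genes fell together. IFIT proteins bind viral RNA, Ifit1 by its unusual cap, and block its translation. All 4 had C5aR-/- values wholly below the WT values, with a median difference of -2.07. Ifit1 had a TPM of 7.69, 14.6 and 26.6 in WT and of 2.54, 1.61 and 0.85 in C5aR-/- TAMs. Each WT library was thus at least 3 times the highest knockout library, and the difference was -2.59 ± 0.46, or 6.03-fold lower on the log2(TPM + 1) scale (limma adjusted p = 0.0965). Ifit2 had a TPM of 11.5, 20.5 and 23.4 in WT and of 7.54, 6.75 and 8.75 in C5aR-/- TAMs, a difference of -1.12 ± 0.28 (limma adjusted p = 0.173). The knockout libraries of Ifit2 lay close together, and without WT TAM 3 its difference of -0.93 was under 2-fold and was not called. Ifit3 had a TPM of 10.5, 28.5 and 68.4 in WT and of 9.76, 4.75 and 3.36 in C5aR-/- TAMs, a difference of -2.15 ± 0.67 (limma adjusted p = 0.236). Ifit3b had a TPM of 1.82, 5.39 and 14.6 in WT and of 1.08, 0.60 and 0.36 in C5aR-/- TAMs, a difference of -1.98 ± 0.60 (limma adjusted p = 0.231). Ifit3b reached the filter's TPM of 1 in 3 libraries through the WT group, with 1 C5aR-/- library above it, so its call is given as a description. In both copies the lowest WT value, in WT TAM 1, was next to the highest knockout value, in C5aR-/- TAM 1.

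Ifit2, Ifit3, Ifit3b and Ifit1 lie in this order within a stretch of chromosome 19, from 34550694 to 34650009 (GRCm38, GENCODE M21). Ifit3 and Ifit3b are closely related copies: 31.6% of the stretches of 100 bases in Ifit3 transcripts also occur in Ifit3b, and 27.4% of those in Ifit3b occur in Ifit3. How the authors' counting split such reads is not known, so the level of each copy is uncertain and they are not separate evidence. Their promoters show the same likeness. The following stretches, shown because these 3 genes had the largest differences among members with a searched motif, are read 5′ to 3′ on the gene's strand, with matches to the ISRE in capitals (GAAA and GAAA with any 2 bases between them, or the reverse complement; RefSeq promoters, GRCm38.p6).
Ifit1, chr19:34640755-34640843, + strand: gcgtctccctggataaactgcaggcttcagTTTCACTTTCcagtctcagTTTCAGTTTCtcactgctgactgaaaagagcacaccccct
Ifit3, chr19:34583343-34583446, + strand: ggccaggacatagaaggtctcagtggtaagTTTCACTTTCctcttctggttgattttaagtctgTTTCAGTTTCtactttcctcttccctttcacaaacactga
Ifit3b, chr19:34607739-34607842, + strand: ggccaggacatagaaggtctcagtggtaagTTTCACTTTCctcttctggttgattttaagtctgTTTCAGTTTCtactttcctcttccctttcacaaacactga
The stretches of Ifit3 and Ifit3b had 0 mismatches over 104 bases. Each of the 3 promoters held a pair of matches, with the first base at -104 in Ifit1, -156 in Ifit3 and -188 in Ifit3b, counted from the RefSeq start site.

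The OAS genes, which encode enzymes that answer double-stranded RNA by making the activator of RNase L, and their relatives split in direction. Oas2 fell, with a TPM of 24.6, 19.4 and 39.6 in WT and of 17.3, 13.9 and 6.67 in C5aR-/- TAMs, a difference of -1.12 ± 0.39 (limma adjusted p = 0.284). Without WT TAM 3 the difference of Oas2 was -0.84, under 2-fold, and was not called. Oas1a had a TPM of 27.2, 23.9 and 42.9 in WT and of 21.5, 15.6 and 14.1 in C5aR-/- TAMs, so the groups were apart, but the difference of -0.82 was under 2-fold (limma adjusted p = 0.254). Oas1g and Oas3 gave -0.80 and -0.85 with overlapping groups, and 40.9% of the 100-base stretches of Oas1a are shared with Oas1g, so these 2 levels are uncertain too. Oasl2 was among the most abundant members, with a TPM from 413 to 719 in WT and from 205 to 446 in C5aR-/- TAMs, a difference of -0.77 with groups that overlapped.

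Oasl1 went the other way. It encodes an OAS-like protein without the enzyme activity that is known to hold back translation of Irf7. Its TPM was 36.6, 38.7 and 29.5 in WT and 68.0, 48.6 and 41.7 in C5aR-/- TAMs, a difference of 0.56 ± 0.21 (limma adjusted p = 0.310). It was the only one of the 43 genes whose knockout values lay wholly above the WT values, and its difference was under 2-fold. WT TAM 3, highest for most of the set, was the lowest of the 6 libraries for Oasl1. With each library left out in turn, the difference of Oasl1 stayed between 0.37 and 0.71.

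Of the Mx genes, which belong to the family of dynamin-like GTPases, Mx2 fell. Mx2 had a TPM of 9.76, 7.32 and 10.2 in WT and of 5.54, 2.08 and 0.99 in C5aR-/- TAMs, a difference of -1.55 ± 0.44 (limma adjusted p = 0.211). The 3 WT libraries lay close together and the difference was -1.47 without WT TAM 3, whereas C5aR-/- TAM 1 was well above the other knockout libraries. Mx1 had a TPM of 4.37, 7.30 and 6.77 in WT and of 5.04, 2.35 and 2.55 in C5aR-/- TAMs, and its difference of -0.76 was under 2-fold with groups that overlapped through C5aR-/- TAM 1.

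In the ISG15 system, Isg15 itself fell. Isg15 is a ubiquitin-like protein that is conjugated to newly made proteins during the antiviral response and also secreted. It had a TPM of 65.9, 76.0 and 158 in WT and of 42.6, 20.1 and 21.7 in C5aR-/- TAMs, a difference of -1.76 ± 0.41, or 3.40-fold lower (limma adjusted p = 0.155). Usp18, which removes Isg15 from proteins and damps signaling at Ifnar2, had a TPM of 6.76, 8.0 and 26.6 in WT and of 5.77, 4.91 and 2.93 in C5aR-/- TAMs. Its groups were apart, but its difference of -1.20 ± 0.51 did not pass (limma adjusted p = 0.349). Trim25, a ubiquitin ligase that acts on RIG-I, gave -0.18 with a TPM from 20.4 to 54.3 over all 6 libraries.

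Of the 11 other antiviral effectors, Ifi44 fell. Ifi44, an interferon-induced protein that slows cell growth, had a TPM of 6.99, 10.6 and 31.2 in WT and of 4.69, 1.78 and 2.23 in C5aR-/- TAMs, a difference of -1.96 ± 0.55 (limma adjusted p = 0.210). Rsad2, which encodes viperin, and its neighbor on chromosome 12, Cmpk2, a nucleotide kinase, did not pass. Rsad2 had a TPM of 6.43, 12.4 and 5.99 in WT and of 8.22, 1.66 and 0.70 in C5aR-/- TAMs, a difference of -1.35 ± 0.63 (limma adjusted p = 0.39), and C5aR-/- TAM 1 lay among the WT libraries. Cmpk2 had a TPM of 4.87, 7.67 and 19.5 in WT and of 6.40, 2.82 and 3.17 in C5aR-/- TAMs, a difference of -1.05 ± 0.50 (limma adjusted p = 0.398). Although adjacent, the pair thus peaked in different WT libraries.

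Ifitm3, which blocks the fusion of viruses with endosomes and had the highest mean TPM of the 43 genes, showed a small and even difference. Its TPM was 727, 633 and 733 in WT and 427, 536 and 457 in C5aR-/- TAMs, a difference of -0.56 ± 0.15 (limma adjusted p = 0.188), with groups apart and WT TAM 3 level with WT TAM 1. Ifi35 and Rtp4 also had groups apart, with differences of -0.66 and -0.98. Isg20, an exonuclease of single-stranded RNA, Xaf1, which promotes apoptosis, Eif2ak2, which encodes the translation-blocking kinase PKR, and Parp14, an ADP-ribosyltransferase, gave -0.73, -0.95, -0.40 and -0.68 with groups that overlapped. Bst2, which tethers budding virions to the cell surface, was higher in the knockout on average, with a TPM of 138, 144 and 365 in WT and of 165, 208 and 381 in C5aR-/- TAMs. The spread within each group exceeded this difference of 0.28 (limma adjusted p = 0.818), and C5aR-/- TAM 3 held its highest value.

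The 7 interferon-inducible GTPases, the guanylate-binding proteins (Gbp2, Gbp3, Gbp7) and immunity-related GTPases (Igtp, Irgm1, Iigp1, Ifi47) that attack the vacuoles of intracellular microbes, had a large mean difference that did not pass in any of them. Their median difference was -1.34, and 0 of 7 were called. Gbp2 had a TPM of 54.3, 140 and 546 in WT and of 52.9, 38.2 and 68.2 in C5aR-/- TAMs, a difference of -1.62 ± 0.77 (limma adjusted p = 0.397). Gbp3 had a TPM of 30.7, 48.0 and 191 in WT and of 24.6, 20.3 and 32.7 in C5aR-/- TAMs, a difference of -1.34 ± 0.63. Gbp7 had a TPM of 10.6, 22.8 and 72.3 in WT and of 14.3, 10.8 and 13.3 in C5aR-/- TAMs, a difference of -0.99 ± 0.62. For each, WT TAM 1 lay at or below the level of at least 1 knockout library, and WT TAM 3 was more than 4 times the mean of the other WT libraries.

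The immunity-related GTPases followed the same order of WT libraries. Igtp had a TPM of 28.1, 90.2 and 505 in WT and of 32.1, 27.6 and 77.3 in C5aR-/- TAMs, a difference of -1.39 ± 1.0. Irgm1, an autophagy regulator, had a TPM of 63.9, 110 and 372 in WT and of 62.3, 48.0 and 78.0 in C5aR-/- TAMs, a difference of -1.15 ± 0.61. Iigp1 had a TPM of 7.49, 45.6 and 359 in WT and of 11.2, 8.84 and 53.7 in C5aR-/- TAMs, a difference of -1.48 ± 1.35. Its value in WT TAM 3 was 13.5 times the mean of WT TAM 1 and 2, and without that library the difference was -0.09. Ifi47 had a TPM of 49.7, 74.0 and 195 in WT and of 42.3, 35.3 and 56.9 in C5aR-/- TAMs, a difference of -1.01 ± 0.49. All 7 GTPases were highest in WT TAM 3, and the adjusted p-values from limma ran from 0.393 for Gbp3 to 0.660 for Iigp1.

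**Figure D2:**
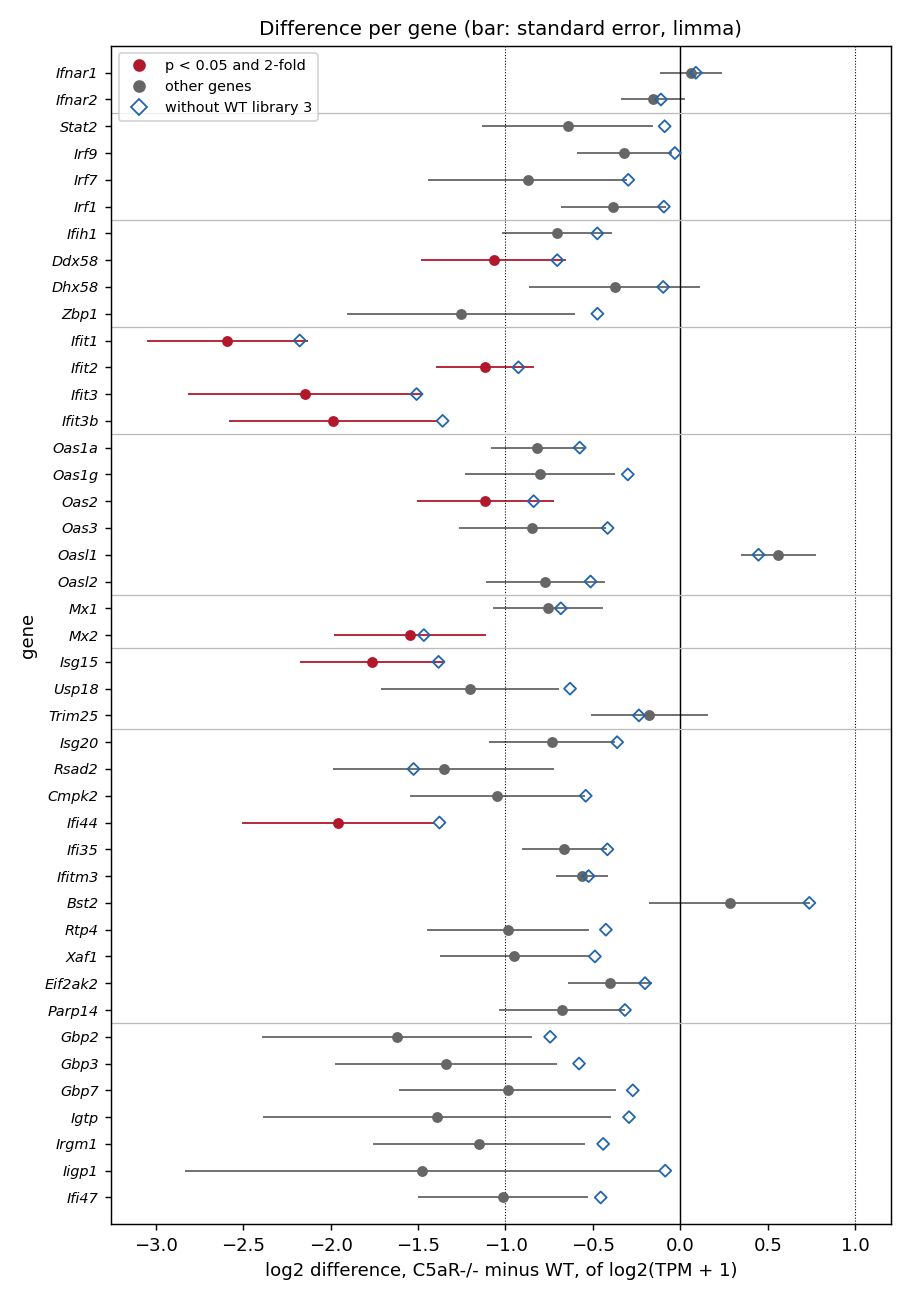
Difference of each of the 43 genes on the log2(TPM + 1) scale (C5aR-/- minus WT, circles with standard errors from limma; red, unadjusted p under 0.05 and at least 2-fold) and the same without WT library 3 (open diamonds). Without that library the diamonds of the GTPases lie between -0.74 and -0.09, while Ifit1, Ifit3, Ifit3b, Mx2, Isg15 and Ifi44 stay below -1.

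WT TAM 3 exceeded the mean of the other WT libraries at least 2-fold for 25 of the 43 genes, against 5.27% of all genes, and at least 4-fold for 8, against 0.92%. The 8 were Zbp1, Ifit3b and the GTPases other than Ifi47. The role groups depended on this library to different degrees. Without it the median difference moved from -1.34 to -0.44 for the GTPases and from -0.51 to -0.09 for the transcription factors, while it moved from -2.07 to -1.43 for the IFIT genes and from -1.15 to -1.08 for the Mx genes. For all 43 genes the median without WT TAM 3 was -0.46, and 40 of the 43 genes were below 0, against 52.7% of all genes. In the other direction, without WT TAM 1 the number of genes called lower grew from 9 to 21, against 3.43% of all genes, and took in all 7 GTPases.

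A core of 6 genes was called lower in the comparison of all 6 libraries and again with each library left out in turn: Ifit1, Ifit3, Ifit3b, Mx2, Isg15 and Ifi44. The same was true of 1.43% of all genes. Ifit3b, which passed the filter through the WT libraries and shares sequence with Ifit3, adds no separate evidence to this count. Over the 6 comparisons with a library left out, the difference of Ifit1 ranged from -3.01 to -2.18, that of Isg15 from -2.10 to -1.38, that of Ifi44 from -2.38 to -1.38 and that of Mx2 from -2.01 to -1.15. Without C5aR-/- TAM 1, the knockout library in which most of these genes were highest, 3 of the 43 genes passed the adjusted threshold, against 2.41% of all genes. These were Mx2 (limma adjusted p = 0.0280), Ifit1 (limma adjusted p = 0.0458) and Isg15 (limma adjusted p = 0.0474). Of the other 3 called genes, Ifit2 was called in 5 and Oas2 and Ddx58 in 3 of the 6 comparisons.

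**Figure D3:**
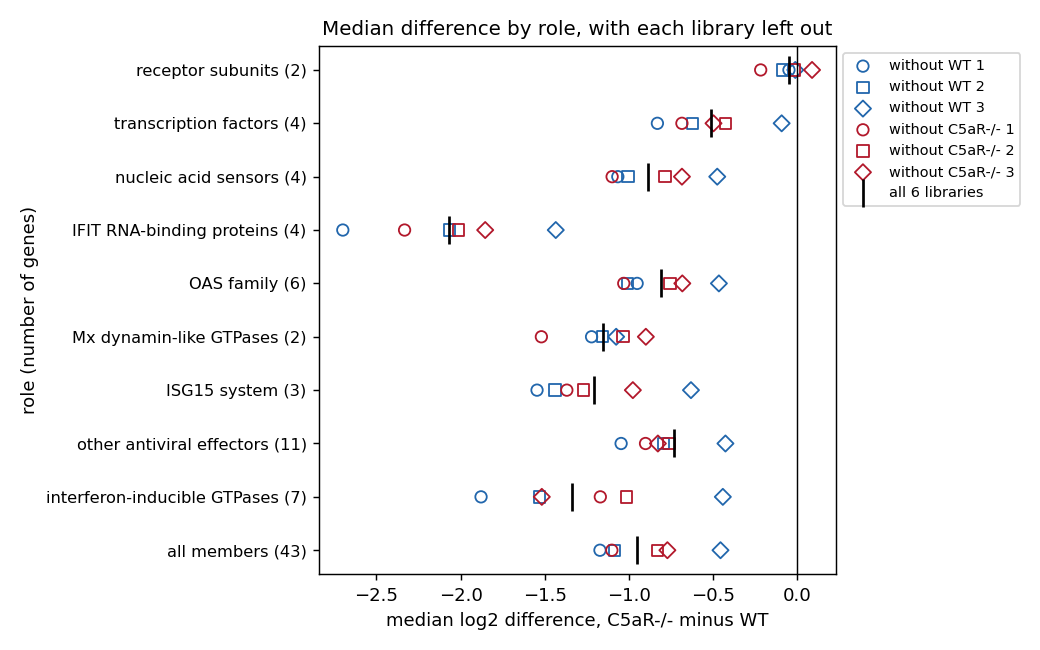
Median difference (C5aR-/- minus WT, log2(TPM + 1) scale) of the genes in each role and of all 43, with all 6 libraries (black bar) and with each library left out (open symbols, blue for WT and red for C5aR-/- libraries). Without WT library 3 the median is -0.44 for the GTPases and -0.09 for the transcription factors, whereas it is -1.43 for the IFIT genes and -1.08 for the 2 Mx genes.

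Promoters were then read for the motifs of both interferon pathways. RefSeq windows from 250 bases before to 50 after the start site (GRCm38.p6) were matched for 34 of the 43 genes. The ISRE, searched as GAAA and GAAA with 2 bases between them on both strands, was found in 19 of the 34 genes, 55.9%, against 3.99% of 27025 genes with such a window and 3.44% of all 32851 windows. The GAS, searched as TTC and GAA with 3 bases between them, which reads the same on both strands, was found in 12 of the 34, 35.3%, against 9.55% of genes and 8.3% of windows. To show how the matches differ between a core gene, a GTPase and a factor induced through GAS, Isg15, Gbp7 and Irf1 are printed as above, chosen after their values were seen, with the ISRE in capitals for the first pair and the GAS for Irf1.
Isg15, chr4:156200845-156200926, - strand: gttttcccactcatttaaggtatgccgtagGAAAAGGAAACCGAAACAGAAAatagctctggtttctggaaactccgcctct
Gbp7, chr3:142530253-142530322, + strand: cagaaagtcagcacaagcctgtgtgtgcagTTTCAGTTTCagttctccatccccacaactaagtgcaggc
Irf1, chr11:53769894-53769962, + strand: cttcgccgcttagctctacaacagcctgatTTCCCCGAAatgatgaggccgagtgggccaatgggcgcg
In Isg15, 3 overlapping ISRE matches ran without a gap from -78 to -57, while Gbp7 held 1 ISRE match from -53 to -44 and Irf1 1 GAS match from -90 to -82. Gbp7 also held 2 GAS matches, from -106 to -98 and from -87 to -79, and the stretch printed begins inside the latter.

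**Figure D4:**
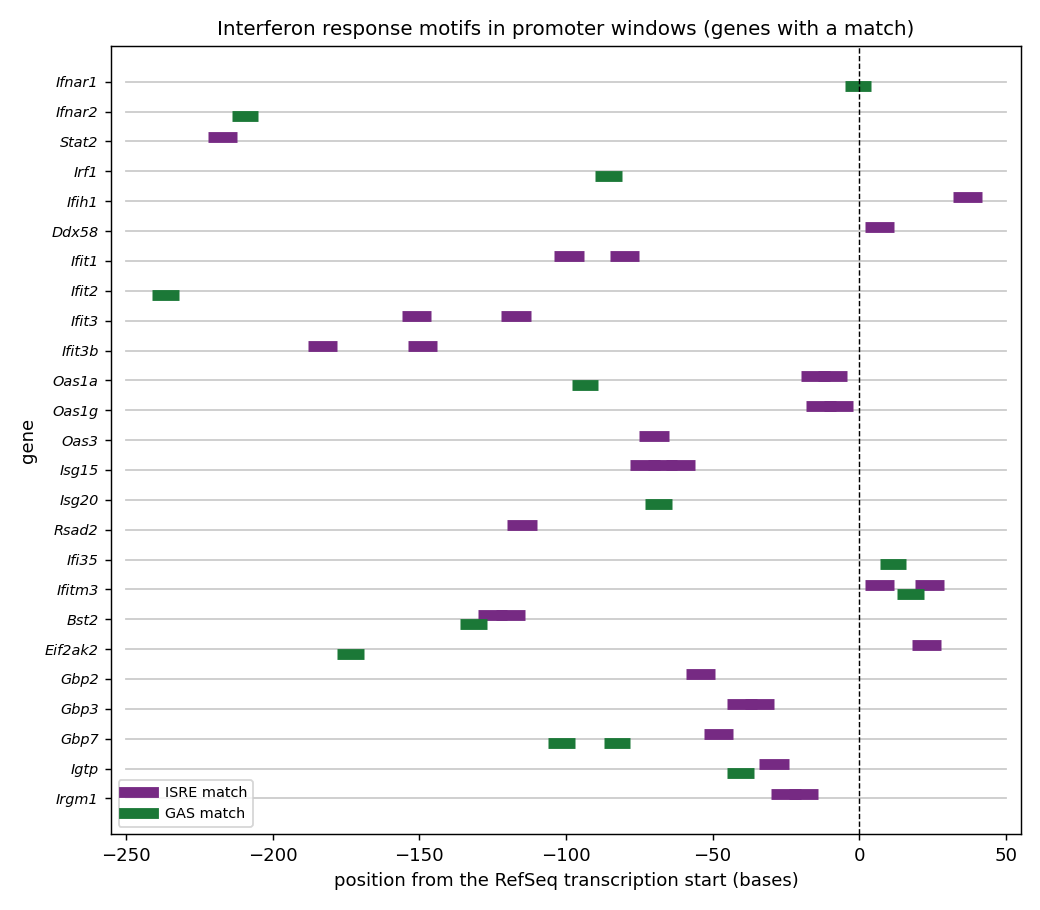
Positions of ISRE (purple) and GAS (green) matches from 250 bases before to 50 after the RefSeq start site (dashed line) in the 25 interferon-stimulated genes with a match. Most ISRE matches lie before the start site, and a few, as in Ddx58, Ifih1 and Eif2ak2, lie just after it.

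Among the 34 genes with a window, the motifs did not split those that fell from those that did not. Of the genes called lower, Mx2 and Oas2 had no window and are not covered. The 19 genes with an ISRE had a median difference of -1.07 and 5 of them were called lower, and the 15 without one had a median of -0.73 with 2 called. Genes with a GAS had a median of -0.61, and those without one -1.03. Ifi44 and Ifit2 fell without an ISRE match in the window, and Bst2 held one although its mean was higher in the knockout. The GTPases and the IFIT genes both carried ISRE matches, in 5 of the 6 GTPases with a window and in 3 of the 4 IFIT genes, but differed in how far they depended on WT TAM 3. These counts are descriptions of letters in a window.

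The ligands themselves were partly measured. Of 21 interferon genes listed, 13 were at 0 in all 6 libraries, and IFN-α genes reached at most a TPM of 0.26. Ifnb1, which encodes IFN-β, had a TPM of 11, 7.59 and 2.05 in WT and of 0.98 and 0.53 in C5aR-/- TAM 1 and 2, and it was listed at 0 in C5aR-/- TAM 3. It fell, with a difference of -2.23 ± 0.55 (limma adjusted p = 0.168), and the groups did not overlap. No C5aR-/- library reached a TPM of 1, so Ifnb1 entered the test through its WT values alone, and its call is a description. The WT libraries stood in the opposite order to most of the 43 genes, with Ifnb1 highest in WT TAM 1 and lowest in WT TAM 3. Ifng, which encodes IFN-γ, had a TPM of 1.10, 6.43 and 18.1 in WT and of 3.25, 2.60 and 1.90 in C5aR-/- TAMs, a difference of -0.92 ± 0.75 with overlapping groups (limma adjusted p = 0.618). Its WT order, lowest in library 1 and highest in library 3, was that of the GTPases, but in the knockout Ifng was lowest in C5aR-/- TAM 3, where the GTPases other than Gbp7 were highest.

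**Figure D5:**
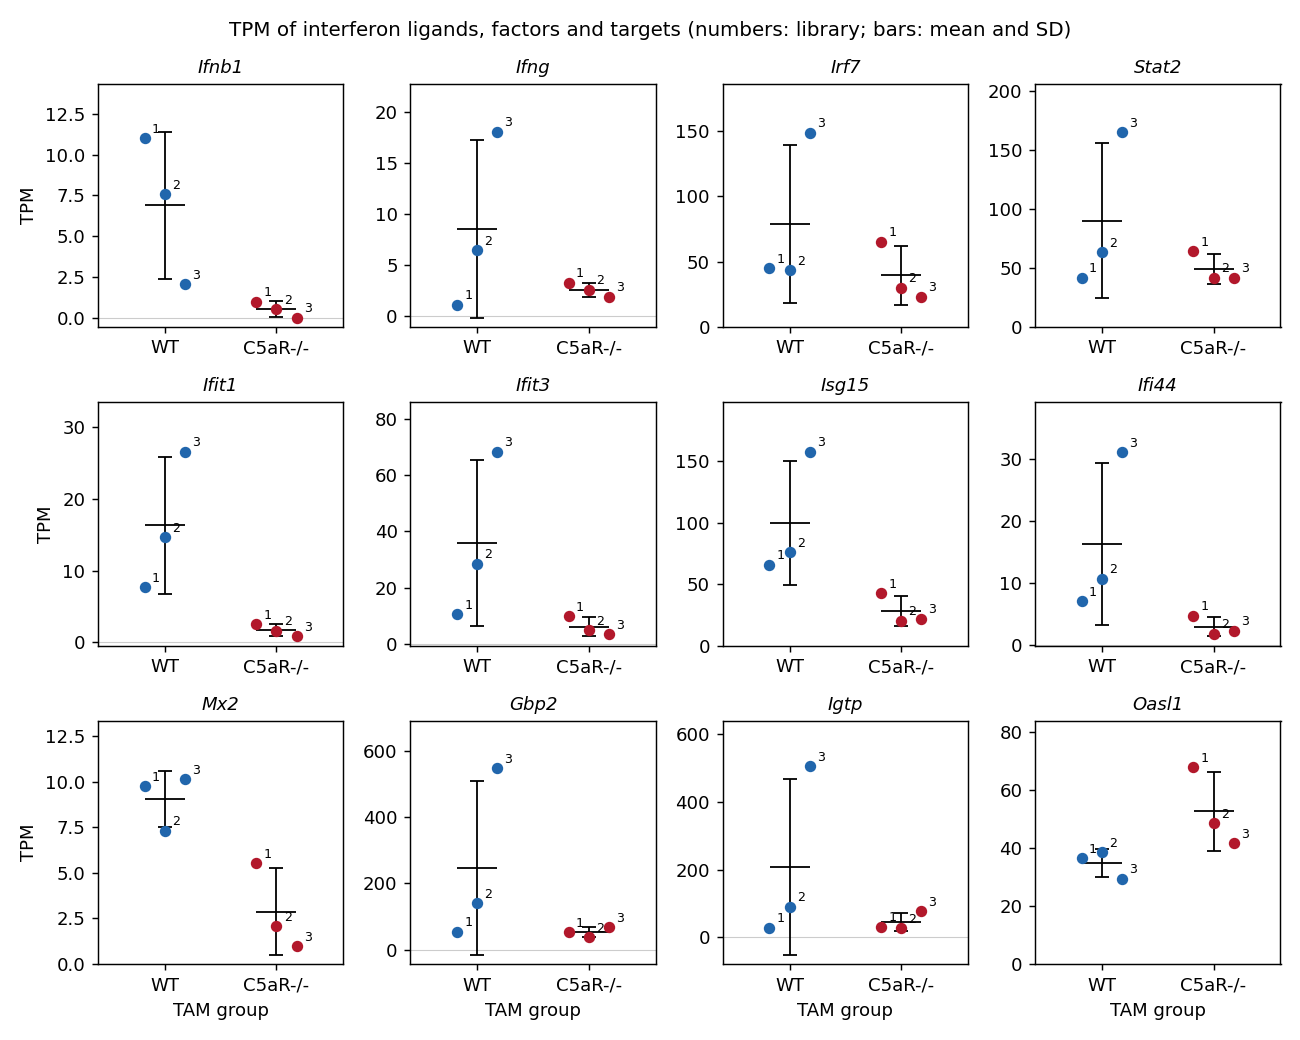
TPM of 12 genes in WT (blue) and C5aR-/- (red) TAMs, with points numbered by library and bars for the mean and SD of 3 libraries. Ifnb1 is highest in WT library 1, whereas Ifng, Stat2, Irf7, Gbp2 and Igtp are highest in WT library 3, and Oasl1 is higher in all C5aR-/- libraries than in any WT library.

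Of 9 genes of the other receptors and the JAK-STAT core, 8 were below 0, against 55.5% of all genes. None of the 9 was called, where the rule called 2.84% of all genes as lower and 2.13% as higher. Jak1 gave -0.59, Jak2 -0.24 and Tyk2 -0.03, and of the IFN-γ receptor subunits Ifngr1 gave 0.39 and Ifngr2 -0.38. Of 7 negative regulators 0 were called, and the largest difference was that of Socs3, with a TPM of 436, 231 and 133 in WT and of 208, 179 and 69.6 in C5aR-/- TAMs, while that of Irf2 was -0.21. Of 14 genes of upstream sensing 0 were called. Of these, 9 were below 0 and 5 above, and the median was -0.06, against -0.05 over all genes. The highest difference was 0.57. The lowest was that of Mavs, the adaptor of RIG-I and MDA5, with a TPM of 54.6, 64.0 and 52.3 in WT and of 44.3, 26.0 and 20.8 in C5aR-/- TAMs (-0.95, limma adjusted p = 0.22). Irf5 gave -0.87 (limma adjusted p = 0.266), and both genes had groups apart with a fold change under 2. The knockout values lay wholly below the WT values for 3 of the 14, against 12.5% of all genes, and wholly above for 1, against 8.84%.

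Other interferon targets outside the set were mostly lower as well. Of 63 other type I-inducible genes tested, 60 were below 0, against 55.5% of all genes, and the median was -0.57, against -0.05. Among them 8 were called lower and 0 higher, against 2.84% and 2.13% of all genes. Slfn4, a Schlafen gene of myeloid cells, had the largest difference, with a TPM of 61.4, 42.4 and 24.6 in WT and of 5.47, 4.96 and 1.13 in C5aR-/- TAMs (-3.24 ± 0.51, limma adjusted p = 0.0875). Like Ifnb1, it was highest in WT TAM 1 and lowest in WT TAM 3 among WT libraries. Ifitm6 had a TPM of 73.2, 48.5 and 13.1 in WT and of 21.8, 17.2 and 1.10 in C5aR-/- TAMs, a difference of -1.96 ± 1.02 that did not pass. Cxcl10, a chemokine of activated T cells, gave -0.61. Of 15 other IFN-γ-inducible genes tested, 14 were below 0, 1 was called lower, and all 15 were highest in WT TAM 3, against 22.8% of all genes. Tgtp1 fell by 1.64 ± 0.52 (limma adjusted p = 0.242), Gbp10 gave -1.69 ± 0.95, and Cxcl9, with a TPM of 1.36, 3.79 and 11.4 in WT and of 1.81, 2.24 and 4.68 in C5aR-/- TAMs, gave -0.48 (limma adjusted p = 0.760).

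Several marker lists also differed between groups or between libraries, and their part in these results was not tested. The counts of markers called stand beside 2.84% of all genes called lower and 2.13% called higher by the same rule. In bulk libraries, fewer cells of a type and less RNA per cell cannot be told apart. Markers of T and NK cells, the main source of IFN-γ, summed to a TPM of 34.3, 77.7 and 124 in WT and of 76.9, 61.5 and 34.3 in C5aR-/- TAMs, the WT order of the GTPases but not their knockout order, and 0 of the 11 tested were called. Macrophage markers had the reverse WT order, with sums of 3293, 1407 and 1209, and of 4490, 2472 and 1477 in C5aR-/- TAMs, with 0 of 10 called. With the mean log2(TPM + 1) of these 10 genes as a covariate, 8 of the 43 genes were called lower, among them all 6 of the core, against 4.04% of all genes. Ifit2 and Ddx58 were no longer called and Rsad2 was. With the same covariate the median difference of the GTPases moved from -1.34 to -0.63, and that of Iigp1 from -1.48 to -0.19. Mast cell markers had the largest median difference of any marker list, -3.14, with 5 of 6 called lower and Kit called higher. Mcpt4, a mast cell protease, had a TPM of 12.4, 12.0 and 22.4 in WT and of 0.25 in C5aR-/- TAM 1, and it was listed at 0 in the other knockout libraries. Mcpt4 and Fcer1a reached the filter's TPM of 1 through the WT libraries alone. Cpa3 and Tpsb2 were above it in 1 C5aR-/- library. These calls, and the median of the list, are therefore given as descriptions. The 5 lower mast cell genes had C5aR-/- values wholly below the WT values. For genes that passed the filter through WT values, the share of 12.5% of all genes is no fair comparison. Of the 5, Cma1 alone was above a TPM of 1 in every C5aR-/- library, with 1.68, 4.85 and 2.43. All 5 were highest in WT TAM 3, as most of the 43 genes were, and the share of 22.8% of all genes is limited in the same way. Of 6 monocyte markers, 1 was called lower, Ly6c2 (-1.41), and its groups overlapped. Of the 6, 4 were below 0 and 2 above, Ccr2 at 0.15 and F13a1 at 0.80, and the median was -1.04. The summed TPM of the monocyte markers was 268, 246 and 159 in WT and 297, 135 and 53.3 in C5aR-/- TAMs. Among WT libraries this sum was lowest in WT TAM 3. Neutrophil markers, which the Ly6G gate should leave out, were lower in C5aR-/- TAMs, and 3 of 6 tested were called lower. The summed TPM of the neutrophil markers was 943, 2310 and 611 in WT and 202, 384 and 27.5 in C5aR-/- TAMs. Among WT libraries it was lowest in WT TAM 3. Of the called genes, Cxcr2 was above a TPM of 1 in 1 C5aR-/- library. Ly6g did not pass the filter. Its TPM was 0.62, 4.94 and 0.92 in WT and 0.56 in C5aR-/- TAM 2, and it was at 0 in C5aR-/- TAM 1 and 3. Heat shock genes also had sums that did not overlap, from 2868 to 9022 in WT and from 1853 to 2718 in C5aR-/- TAMs, with 2 of 8 called lower. Mesothelial markers likewise did not overlap, from 1060 to 1402 against 721 to 1005, with 4 of 6 called lower and Msln higher in all knockout libraries. Plasmacytoid dendritic cells are known for making type I interferon. Of their 7 markers tested, 3 were below 0 and 4 above, with 0 called lower and 2 higher, Klk1 and Runx2. Klk1 reached the filter's TPM of 1 through the C5aR-/- libraries alone, so its call is a description. Siglech, their defining marker, had a TPM of at most 1.0 in WT and from 0.87 to 4.54 in C5aR-/- TAMs, with overlapping groups. Ly6d gave -1.30, also with overlapping groups. The summed TPM of the list overlapped, at 78.0, 93.4 and 40.3 in WT and 93.8, 57.9 and 48.1 in C5aR-/- TAMs. Among WT libraries it was lowest in WT TAM 3.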

How the data were processed

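TAMs of ID8 tumors were measured in 3 WT and 3 C5aR-/- libraries, grouped by the sample titles. Per the submitters' processing notes and the methods, the authors used fastp, HISAT2, StringTie, RSEM and DESeq2 with mm10, in versions not given in the sources used here, and deposited TPM values per Ensembl gene, although the methods name FPKM. The sum of TPM is the same in every library, so depth is lost. The authors' mean columns were not used. Symbols and positions came from GENCODE M21 (GRCm38), which lacked 4907 of the 56980 IDs, so the authors' annotation was of another release.

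Low genes were dropped (a minimum TPM of 1 in 3 libraries), and log2(TPM + 1) of the remaining 14776 genes was tested with limma 3.58.1 in R 4.3.3 (lmFit, eBayes with trend, Benjamini-Hochberg adjustment over all of them), after a check on simulated data. Tables were made with numpy 2.4.6 and pandas 2.3.3 under Python 3.11.15. A call needed a 2-fold difference and a p under 0.05, unadjusted or adjusted, since the methods state both. The p-values measure the spread between libraries, which may be technical. The members and lists were chosen with earlier results of these data known, so no list was tested as a set. The values of some genes on these lists are not reported here. Levels in each library are given for the receptor subunits, the transcription factors and the 20 members with the largest differences, and for Oas1a, Oasl1, Mx1, Ifitm3 and Bst2, chosen after their values were seen. Motifs were searched in RefSeq promoters, and shared stretches of 100 bases were counted over GENCODE M21 transcripts. Results were recomputed with other pseudocounts (0.1), minimum levels (none, or a TPM of 5), scalings (quantile, median of ratios) and variance models (eBayes without trend), with the replicate number as a block, with a macrophage covariate, and without each library.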

Additional observations from a re-analysis of the deposited data

How the results depend on the processing

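The number of the 43 genes called lower at the unadjusted threshold was from 8 to 12 under the alternatives that kept all libraries (9 in the comparison reported) and from 6 to 21 with a library left out, the lowest without WT TAM 3 and the highest without WT TAM 1 (15 without C5aR-/- TAM 1). At the adjusted threshold the number was 0 with all libraries and from 0 to 3 with a library left out. Genes with groups that did not overlap in either direction numbered 15, and 14 with median-of-ratios scaling or a TPM of at least 5, which Ifit3b did not reach, and from 15 to 29 with a library left out. The macrophage covariate gives no such count. The median difference was from -0.96 to -0.76 with all libraries and from -1.17 to -0.46 with a library left out. No scaling moved the median of all genes by more than 0.1.

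With the replicate number as a block, 12 genes were called lower, of which 7 were shared with the 9 reported, Ddx58 and Oas2 were lost, and Zbp1 and 4 of the 7 interferon-inducible GTPases (Gbp2, Gbp3, Irgm1 and Ifi47) were gained. Libraries with the same number did not all deviate together (r = 0.186, -0.011 and 0.273 for numbers 1, 2 and 3, across genes, which are not independent replicates), so the numbers do not pair the samples.

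C5ar1 differed by -5.04 (limma adjusted p = 0.0666), by -5.52 with the macrophage covariate (adjusted p = 0.0425), and by -5.63 to -4.45 with a library left out, passing the adjusted threshold without C5aR-/- TAM 1. Ifnar1 changed sign with the macrophage covariate (-0.040) and without C5aR-/- TAM 1, with a range from -0.099 to 0.19 over the libraries left out. With 3 libraries a group and unknown depth, differences under 2-fold and levels near a TPM of 1, as of Ifit3b in the knockout, are the least certain values here.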
